A study of Arabidopsis thaliana with 2 samples.

Results

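The nuclei described here were selected on 7 genes whose transcripts were concentrated in a small share of nuclei from Arabidopsis inflorescences undergoing synchronous flower formation. They carried the working label cortex-like, which the marker levels given below went against. In every nucleus with at least 1000 detected nuclear genes, the unique molecular identifiers (UMIs, each standing for 1 captured transcript) of AT5G53486, AT1G52700, AT5G59305, SBT3.13 (AT4G21650), AT1G27020, JKD (AT5G03150) and EPFL6 (AT2G30370) were divided by all nuclear UMIs of the nucleus. The nuclei in the top 6% of this score in their own library, with UMIs of at least 2 of the genes, were taken. This gave 209 of 4545 nuclei at day 4 and 195 of 4397 nuclei at day 3, 404 of 8942 in all, and they are called the chosen nuclei below. All remaining nuclei of the same library, 4336 at day 4 and 4202 at day 3, are called the other nuclei.

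The plants had the genotype pAP1::AP1-GR ap1 cal in the Ler background, so both libraries share the 2 mutations and the transgene, in which the AP1 promoter drives a fusion of AP1 to the glucocorticoid receptor. Main inflorescences received 2 µM dexamethasone daily, which activates the fusion protein and starts flower formation in many meristems together, and about 20 inflorescences were pooled per library. The 2 groups were day 4 of induction, flower stage 5, and day 3 of induction, flower stage 4, with 1 library each. The title of the second sample gives day 3, while its treatment protocol, worded like that of the first, speaks of collection on the fourth day. An untreated inflorescence was not analysed here. The number of PCR cycles was 14 for cDNA and 13 for the library at day 4, against 11 and 14 at day 3, and the sequencing platform differed too, so these cannot be told apart from the day. With 1 library per day, and since nuclei of a library are not replicates, no p-value is given. Intervals are 95% intervals and cover counting error only.

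In the plant body the cortex is the ground tissue between epidermis and vascular strand. In the root, SHR and SCR set up its layers and JKD, a zinc finger protein, restrains SHR movement together with SCR. EPFL6, also named CHAL, is a secreted peptide of the EPF family that acts through ERECTA receptor kinases, and in stems it restrains stomata from the inner tissues. Xylem parenchyma consists of living cells beside the water-conducting vessels, which load solutes and supply precursors for lignin.

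The score was zero in 68.3% of the day 4 nuclei and 68.8% of the day 3 nuclei, and it reached 2.94% of nuclear UMIs at day 4 and 2.06% at day 3. The chosen nuclei had a median score of 0.337% at day 4 and 0.277% at day 3. The limit of the top 6% lay at 0.173% at day 4 and 0.153% at day 3 on a slope without a gap. The last nucleus inside had 5 UMIs of the 7 genes in 2879 at day 4 and 3 in 1961 at day 3, and the first nucleus outside had 8 in 4622 at day 4 and 3 in 1968 at day 3. Of the 273 top-ranked nuclei at day 4 and 264 at day 3, 64 and 69 had UMIs of a single gene and were not taken. A chosen nucleus held a median of 7 UMIs of the 7 genes at day 4 and 6 at day 3, and 100 of the 209 nuclei at day 4 and 93 of the 195 at day 3 had exactly 2 of the genes. Among the other nuclei, 220 at day 4 and 226 at day 3 also had 2 or more of the genes, at a lower score. No barcode was shared between the chosen nuclei of the libraries, and 6 were shared among all nuclei.

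**Figure D1:**
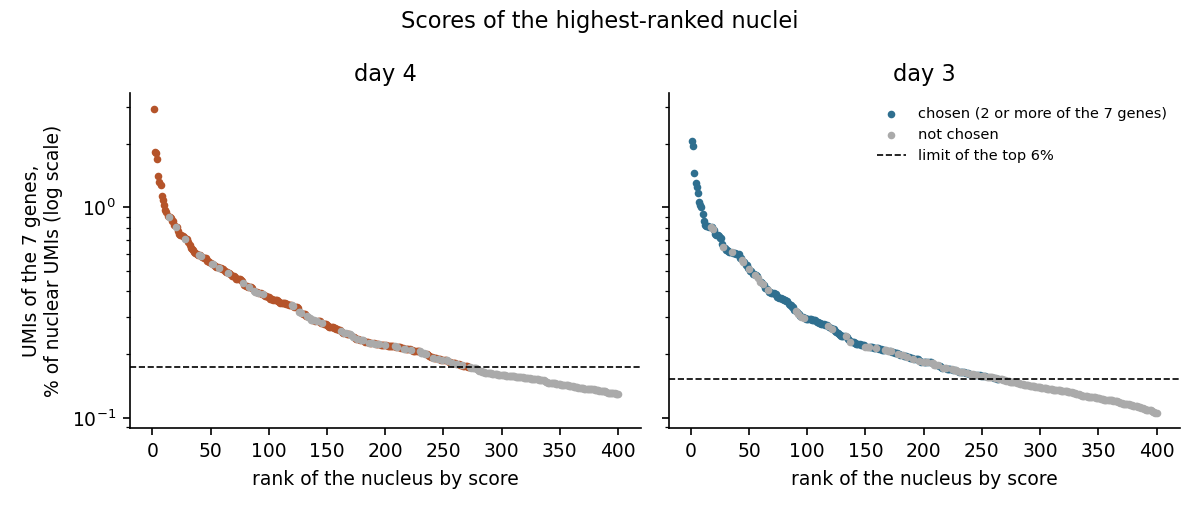
Score of the 400 highest-ranked nuclei of each library (y axis, UMIs of the 7 genes as % of nuclear UMIs, log scale) by rank (x axis), day 4 at the left and day 3 at the right. Coloured points are chosen nuclei, grey points are not chosen, and the dashed line is the limit of the top 6% (0.173% at day 4, 0.153% at day 3), which falls on a slope without a gap.

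Depth was similar on both sides of the limit. The chosen nuclei held 490053 UMIs at day 4 and 455204 at day 3, and the other nuclei 9712477 at day 4 and 10628308 at day 3. Their median was 2074 UMIs, against 1793.5 in the other nuclei at day 4, and 1875 against 1842 at day 3. At an equal depth of 1000 UMIs, the median number of genes was 848 in chosen nuclei and 845 in other nuclei at day 4, and 838 and 841 at day 3. Organelle transcripts took 1.82% of UMIs in chosen nuclei and 2.67% in other nuclei at day 4, and 2.24% and 2.88% at day 3. Doublets were not removed. Of the chosen nuclei, 9.57% at day 4 were among the 8% with the most UMIs, against 7.91% of the other nuclei, and at day 3 the shares were 5.64% and 8.12%. The part of doublets in the results was not tested.

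The 7 selecting genes are a description of the choice and not a finding. Levels are summed UMIs scaled to an equal total of nuclear UMIs (CPM, the usual unit of RNA-seq). The highest at day 4 was SBT3.13, a subtilisin-like protease gene, with 961 CPM in chosen nuclei and 37.0 CPM in other nuclei, and at day 3 it had 609 and 27.5 CPM. AT1G52700, annotated as an alpha/beta hydrolase, had 890 CPM in chosen nuclei and 25.8 CPM in other nuclei at day 4, and 705 and 18.9 CPM at day 3. AT5G59305, annotated as a CLE-like peptide gene, had 614 and 18.1 CPM at day 4, and 609 and 15.8 CPM at day 3. The other nuclei still held 359 UMIs of SBT3.13 at day 4 and 292 at day 3, against 471 and 277 in the chosen nuclei, so many UMIs of this gene lay outside the selection.

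AT5G53486, which has no annotated function, had 545 CPM in chosen nuclei and 6.59 CPM in other nuclei at day 4, and 635 and 6.87 CPM at day 3. AT1G27020, also without a described function, had 212 and 4.32 CPM at day 4, and 387 and 5.17 CPM at day 3. EPFL6 stood at 592 CPM in chosen nuclei and 73.1 CPM in other nuclei at day 4, and at 485.5 and 63.2 CPM at day 3. JKD was the least concentrated, with 257 CPM in chosen nuclei and 73.8 CPM in other nuclei at day 4, and 187 and 65.5 CPM at day 3. In the other nuclei 717 UMIs of JKD were counted at day 4 and 696 at day 3, against 126 and 85 in the chosen nuclei, so most JKD transcripts lay outside the selection.

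At an equal depth of 1000 UMIs, 19.1% of chosen and 6.27% of other nuclei had a UMI of JKD at day 4, and 17.4% of chosen and 5.64% of other nuclei had one at day 3. In nuclei scored highest for epidermal markers, where JKD serves as a gauge of background, the share at that depth was 1.47% at day 4 and 1.89% at day 3. Without thinning the JKD shares were 31.1% in chosen nuclei, 11.3% in other nuclei and 2.93% in the epidermal nuclei at day 4, and 26.2%, 12.1% and 1.89% at day 3. The epidermal nuclei had a median of 1670 UMIs at day 4 and 1713.5 at day 3. The JKD signal of the other nuclei was therefore above this background. Free RNA was read from 571328 barcodes of day 3 with 1 to 100 UMIs, and held the 7 genes together at 280 CPM, against 3616 CPM in the chosen nuclei and 203 CPM in the other nuclei of that library. In it SBT3.13 had 66.0 CPM, AT5G59305 33.5, AT5G53486 31.6, AT1G52700 29.7 and AT1G27020 22.0 CPM, each above its level in the other nuclei. EPFL6 with 62.2 CPM and JKD with 35.4 CPM were below theirs. How much free RNA added to the counts of the other nuclei was not tested.

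**Figure D2:**
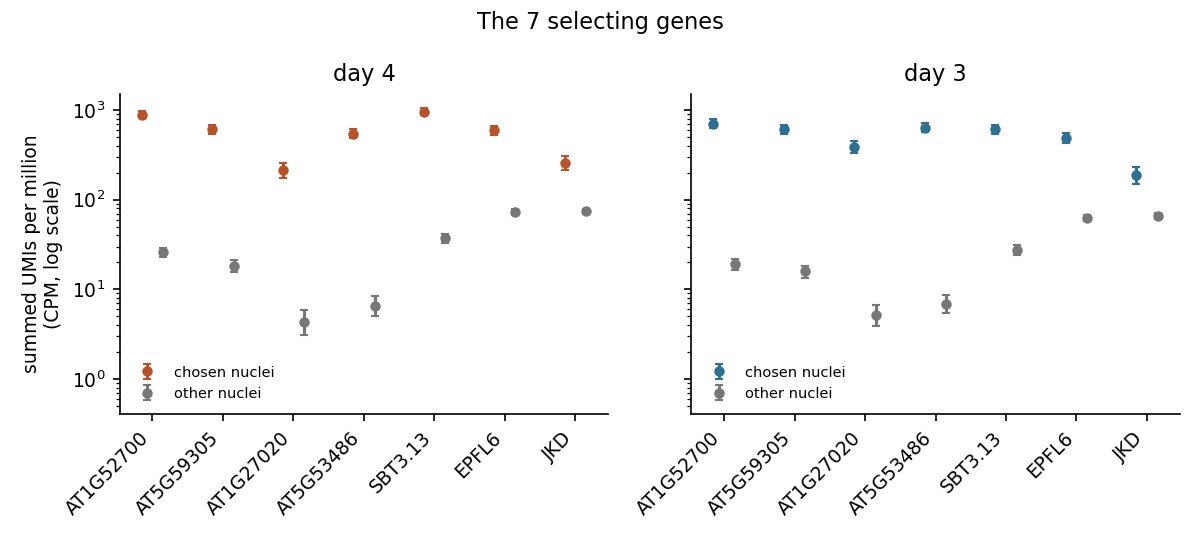
Summed level of the 7 selecting genes (y axis, CPM, log scale) in chosen nuclei (coloured) and other nuclei (grey), day 4 at the left and day 3 at the right, with exact Poisson 95% intervals for counting error. The gap is widest for AT5G53486 (545 against 6.59 CPM at day 4) and narrowest for JKD (257 against 73.8 CPM at day 4).

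The label cortex was checked on lists that left the selecting genes out, and the xylem parenchyma list, not the cortex list, was concentrated in the chosen nuclei. Both lists hold leading markers that the study assigned to its clusters on the day 4 library, so they are not independent of these data, and JKD apart, the selecting genes stand among its xylem parenchyma markers, EPFL6 among those of both. The 17 xylem parenchyma genes summed to 8689 CPM in chosen nuclei and 1533 CPM in other nuclei at day 4, a 5.67-fold level (5.48 to 5.86), and to 7821 and 1581 CPM at day 3, a 4.95-fold level (4.77 to 5.13). The 19 cortex genes summed to 6289 CPM in chosen nuclei and 4919 CPM in other nuclei at day 4, a 1.28-fold level (1.23 to 1.33), and to 6344 and 5245 CPM at day 3, a 1.21-fold level (1.16 to 1.26). The name cortex is therefore not used for these nuclei, and no other cell type name is given to them.

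Applying the same 6% rule to each marker list gave sets of nuclei to overlay. These sets were rebuilt from marker lists and are not the study's own clusters, so a difference from the study may come from the rebuilding. The xylem parenchyma set held 55.5% of the chosen nuclei (48.5 to 62.4) and 3.55% of the other nuclei at day 4, and 50.8% (43.5 to 58.0) and 3.90% at day 3. The chosen nuclei in turn made up 43.0% of that set at day 4 and 37.6% at day 3. The cortex set held 7.18% of the chosen nuclei (4.07 to 11.6) and 5.95% of the other nuclei at day 4, and 6.15% (3.22 to 10.5) and 6.00% at day 3. The share of chosen nuclei in the cortex set was thus within counting error of the share in the other nuclei. None of the 209 and 195 chosen nuclei was in the epidermal set, which allows a share of up to 1.75% at day 4 and 1.87% at day 3.

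Textbook markers gave no cell type either. Of the 16 regulators of ground tissue, 2 reached the minimum for a comparison and neither passed the call used below. Their sum was 629 CPM in chosen nuclei and 657 CPM in other nuclei at day 4, and 681 and 801 CPM at day 3. SHR had 36.7 and 59.9 CPM at day 4, and 72.5 and 66.2 CPM at day 3, while SCR had 34.7 and 45.5 CPM at day 4, and 26.4 and 47.8 CPM at day 3. CO2, a root cortex marker, had 135 CPM in chosen nuclei and 161 CPM in other nuclei at day 4, and 134 and 279 CPM at day 3. Genes of vessel differentiation were near zero. CESA4, CESA7 and CESA8, cellulose synthases of the secondary wall, had 1, 2 and 1 UMIs in the chosen nuclei of day 4. In those of day 3 they had 0, 1 and 0 UMIs. VND6, a master regulator of vessel formation, had 0 UMIs in the chosen nuclei of both libraries. None of these vessel genes reached the minimum for a comparison, so no difference from the other nuclei is read from them.

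Genes were then compared one by one between chosen and other nuclei, as log2 of the ratio of CPM + 1, a scale that understates the change of low genes. A gene was measured if 30 UMIs were observed in the chosen nuclei, or expected there from the other nuclei, in each library, and it was called higher or lower if the difference was at least 2-fold in the same direction in both libraries. This is a rule of size and not a test. Outside the selecting genes 4469 genes were measured, of which 216 (4.83%) were higher and 150 (3.36%) lower. All genes of the nuclei took part in the choice through their total, and genes that move with the selecting genes had to differ, so these counts describe the chosen nuclei and support nothing. Of the 4469, 711 were measured through their UMIs in the chosen nuclei alone, and 156 of the 216 higher genes were among those. Across genes the ratios of the 2 libraries had a Pearson correlation of 0.85, a description over genes that share depth and base composition, and the median ratio was -0.02 at day 4 and 0.00 at day 3.

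**Figure D3:**
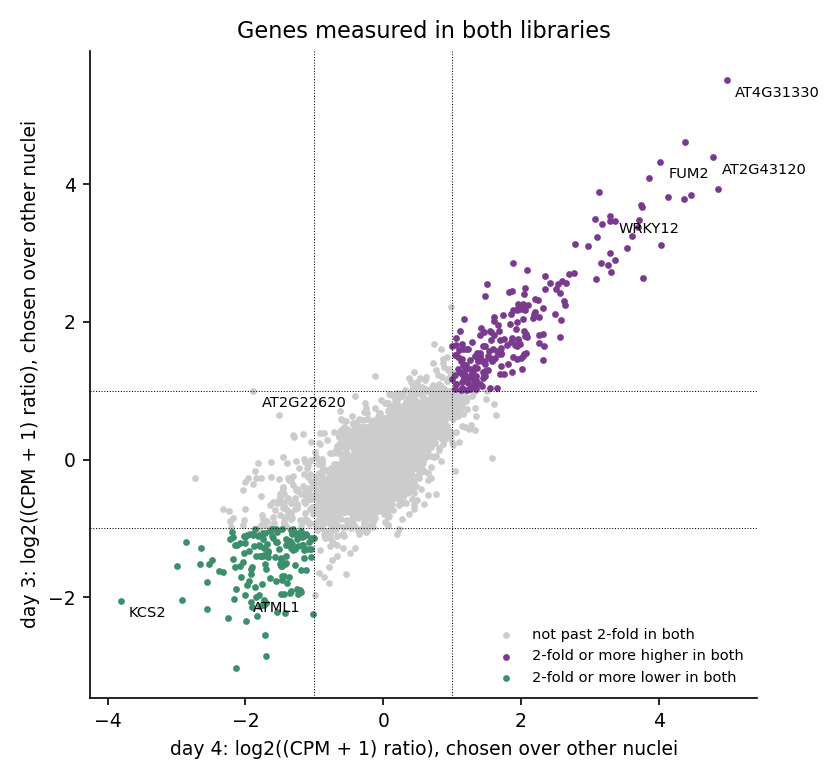
Each point is 1 of the 4469 measured genes, placed by log2 of the ratio of CPM + 1 in chosen over other nuclei at day 4 (x axis) and day 3 (y axis), with dotted lines at 2-fold. The 216 higher genes reach up to AT4G31330 (4.98 at day 4, 5.51 at day 3), the 150 lower genes include KCS2 and ATML1, and AT2G22620 alone is 2-fold apart in opposite directions.

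Several of the genes with the highest ratios encode transporters. AAP6, an amino acid permease of the xylem region, had 200 CPM in chosen nuclei and 10.5 CPM in other nuclei at day 4, and 110 and 6.87 CPM at day 3. SWEET10, a sugar exporter, had 169 and 6.69 CPM at day 4, and 178 and 11.5 CPM at day 3. SIAR1, a bidirectional amino acid transporter of the vasculature, had 77.5 and 5.05 CPM at day 4, and 141 and 12.6 CPM at day 3. The UMIs of these genes came from few nuclei: SWEET10 was seen in 14 chosen nuclei at day 4 and 19 at day 3, and SIAR1 in 14 and 16.

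ABCB15, an ABC transporter, had 177 CPM in chosen nuclei and 12.4 CPM in other nuclei at day 4, and 176 and 12.6 CPM at day 3. At an equal depth of 1000 UMIs it was seen in 4.78% of chosen nuclei and 6.23% of epidermal nuclei at day 4, and in 6.67% and 1.52% at day 3, so at day 4 its presence did not set the chosen nuclei apart from the epidermal ones. AT2G40460, annotated in the major facilitator family, had 245 and 14.1 CPM at day 4, and 96.7 and 10.3 CPM at day 3. TIP2;1, a water channel of the vacuolar membrane that is also on the xylem parenchyma list, was higher with 1128 CPM in chosen nuclei and 276 CPM in other nuclei at day 4, and 1015 and 357 CPM at day 3.

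A second group acts in hormone metabolism or in transcription. GA20OX1, a gibberellin 20-oxidase active in growing stems, had 120 CPM in chosen nuclei and 12.9 CPM in other nuclei at day 4, and 138 and 8.47 CPM at day 3. CYP707A4, an abscisic acid 8'-hydroxylase that breaks the hormone down, had 77.5 and 4.43 CPM at day 4, and 83.5 and 3.95 CPM at day 3. MES17, an esterase that releases auxin from its methyl ester, had 712 and 71.8 CPM at day 4, and 650 and 57.9 CPM at day 3. MES17 was also broad within the selection, with a UMI in 102 nuclei at day 4 and in 101 at day 3.

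ZPR1 and ZPR2, small leucine zipper proteins that bind HD-ZIP III transcription factors and block them, were both higher. ZPR1 had 369 CPM in chosen nuclei and 16.9 CPM in other nuclei at day 4, and 294 and 20.4 CPM at day 3. ZPR2 had 135 and 9.06 CPM at day 4, and 105 and 7.34 CPM at day 3. WRKY12, a factor known to restrain secondary wall formation in the pith, had 73.5 and 6.59 CPM at day 4, and 81.3 and 6.12 CPM at day 3, with no more than 3 UMIs in any chosen nucleus. TAS3b, a source of small RNAs against auxin response factors, had 106 and 11.7 CPM at day 4, and 105 and 8.47 CPM at day 3.

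Further genes act in primary or wall metabolism. FUM2, the cytosolic fumarase that feeds the fumarate store of leaves, had 159 CPM in chosen nuclei and 8.85 CPM in other nuclei at day 4, and 94.5 and 3.76 CPM at day 3. DES1, an L-cysteine desulfhydrase, had 257 and 18.7 CPM at day 4, and 145 and 12.1 CPM at day 3. BGLU45, a glucosidase that releases monolignols from their storage form, had 110 and 11.9 CPM at day 4, and 92.3 and 8.94 CPM at day 3. The BGLU45 locus overlaps 2 annotated genes on the opposite strand, and MES17 overlaps 1.

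AT2G43120, a cupin gene, had 263 CPM in chosen nuclei and 8.55 CPM in other nuclei at day 4, and 174 and 7.34 CPM at day 3. The highest ratio of all, in AT4G31330 of unknown function, rested on 31 UMIs in 11 nuclei at day 4 and 32 UMIs in 9 nuclei at day 3. The remaining genes of the 25 highest, among them the carboxypeptidase-like scpl18, the peroxidase AT2G38380, the subtilase ATSBT5.2 and the glycine-rich AT4G30450 and AT4G30460, had log2 ratios between 2.97 and 4.85. Of ATSBT5.2, 1 nucleus of day 3 gave 22 of 47 UMIs, and without it the day 3 ratio was 2.57 in place of 3.46. AT2G32150, a hydrolase of the HAD family, was the most abundant of the 25, with 869 CPM in chosen nuclei and 69.9 CPM in other nuclei at day 4, and 1156 and 121 CPM at day 3. In that gene 1 nucleus of day 3 gave 102 of 526 UMIs, and without it the day 3 log2 ratio was 2.94 in place of 3.24.

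Genes of the epidermis were lower in the chosen nuclei. Of the 12 textbook epidermal genes 9 were measured and 8 were called lower, beside a background of 3.36%, and the 12 summed to 1198 CPM in chosen nuclei and 4223 CPM in other nuclei at day 4 and to 1318 and 4566 CPM at day 3. ATML1, the homeodomain factor that specifies epidermal identity, had 53.1 and 217 CPM at day 4, and 48.3 and 192 CPM at day 3. Its relative PDF2 had 67.3 and 221 CPM at day 4, and 50.5 and 217 CPM at day 3. CER1, an enzyme of wax alkane synthesis, had 73.5 and 468 CPM at day 4, and 90.1 and 260 CPM at day 3. KCS2, an elongase for suberin and cutin precursors, had the lowest day 4 ratio of the 10 lowest genes, with 3 UMIs in the chosen nuclei of day 4 and 8 in those of day 3.

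Genes of cell division were lower as well. Of the 14 G2/M genes 10 were measured and 6 called lower, beside a background of 3.36%. The list summed to 1665 CPM in chosen nuclei and 3209 CPM in other nuclei at day 4 and to 2583 and 4464 CPM at day 3. KN, the cytokinesis syntaxin KNOLLE, had 59.2 and 219 CPM at day 4, and 112 and 269 CPM at day 3. CYCB1;2, a mitotic cyclin, had 71.4 and 199 CPM at day 4, and 74.7 and 221 CPM at day 3. MYB3R-4, an activator of mitotic genes, had 12.2 and 62.4 CPM at day 4, and 13.2 and 68.8 CPM at day 3. Of the 14 S phase genes none of the 10 measured passed the call, with a summed level of 0.63-fold (0.59 to 0.68) at day 4 and 0.67-fold (0.63 to 0.72) at day 3.

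Several floral organ identity genes were lower too. Of the 15 genes of floral meristem and organ identity 10 were measured and 5 called lower, beside a background of 3.36%. These were AP3, PI, SEP1, SEP2 and SEP3, which specify petals and stamens or act as their partners. SEP4 was on the higher side without being called. Its log2 ratio was 0.99 at day 4 and 0.59 at day 3 without the chosen nucleus with the most UMIs of it. AP3 had 49.0 CPM in chosen nuclei and 135 CPM in other nuclei at day 4, and 65.9 and 215 CPM at day 3. PI had 34.7 and 98.5 CPM at day 4, and 57.1 and 168 CPM at day 3. STM, a meristem homeobox gene, was on the other side of the median without passing the call, with 265 and 126 CPM at day 4 and 279 and 148 CPM at day 3. WUS and CLV3, which mark the stem cell region, had 0 UMIs in the chosen nuclei of both libraries, and their levels of 1.65 to 4.05 CPM in the other nuclei are too low for a difference to be detectable at this depth.

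EPFL6 is a selecting gene, so its level in the chosen nuclei was set by the choice. The receptors it is known to act through took no such part, and their levels are given without a comparison to it. ER had 620 CPM in chosen nuclei and 575 CPM in other nuclei at day 4, and 584 and 563 CPM at day 3. ERL1 was lower, with 57.1 and 243 CPM at day 4, and 72.5 and 213 CPM at day 3, and so was ERL2, with 87.7 and 262 CPM at day 4, and 103 and 276 CPM at day 3. TMM, the receptor-like partner of the epidermis, had 1 UMI in the chosen nuclei of day 4 and 5 in those of day 3. Of the related peptides, EPFL1 was measured and did not pass the call, with 145 and 107 CPM at day 4 and 105 and 114 CPM at day 3. Of the 17 listed ERECTA pathway genes 5 were measured and 2 called, both lower, beside a background of 3.36%.

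SBT3.13 belongs to a subtilase family with several related genes. SBT3.14 and SBT3.15 had 0 UMIs in chosen and other nuclei alike in both libraries, so they give no contrast. Of the 5 listed relatives SBT3.12 alone reached the minimum for a comparison. It had 353 CPM in chosen nuclei and 389 CPM in other nuclei at day 4, and 206 and 287 CPM at day 3. How reads shared between near-identical copies were treated is set by the counting, and the values of SBT3.13 are uncertain to that extent.

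Genes of growing and photosynthetic cells were somewhat higher in sum, and few passed the call. The background over all measured genes was 4.83% higher and 3.36% lower. The 20 genes of cell expansion and primary wall summed to 1.61-fold (1.54 to 1.68) at day 4 and 1.51-fold (1.44 to 1.58) at day 3, with TIP2;1 called higher and the other 13 measured genes short of the call. The primary wall cellulose synthase CESA6 had 386 CPM in chosen nuclei and 241 CPM in other nuclei at day 4, and 347 and 175 CPM at day 3. Photosynthesis genes summed to 5569 CPM in chosen nuclei and 4331 CPM in other nuclei at day 4 and to 5896 and 4733 CPM at day 3, with 0 of 15 measured genes called. Starch genes summed to 1.32-fold (1.24 to 1.41) at day 4 and 1.25-fold (1.16 to 1.34) at day 3, with 0 of 11 called. Of the auxin genes 8 were measured, and PIN7, an auxin efflux carrier, was called higher with 97.9 and 34.7 CPM at day 4 and 76.9 and 23.7 CPM at day 3. Genes induced by mitochondrial dysfunction summed to 273 CPM in chosen nuclei and 854 CPM in other nuclei at day 4, and to 121 and 345 CPM at day 3, and both measured members, AOX1A and SOT12, were called lower.

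Within the xylem parenchyma list itself, 16 of 17 genes were measured, 9 of them through the chosen nuclei alone. Of the 711 genes measured in that way over all genes, 156 were called higher. The selecting genes, JKD apart, stand among the markers of the same cluster. All 16 measured genes of the list were called higher, beside a pooled background of 4.83%, a count that describes the choice and supports nothing. They include RBB1, with 1100 CPM in chosen nuclei and 312 CPM in other nuclei at day 4, where 1 nucleus gave 73 of 539 UMIs, and 837 and 321 CPM at day 3. CYP708A3, a cytochrome P450 that also stands on the textbook xylem list, had 271 and 27.5 CPM at day 4, and 165 and 22.4 CPM at day 3. It was the single member of the 20 textbook xylem genes called higher. That list summed to 429 CPM in chosen nuclei and 286 CPM in other nuclei at day 4, and 457 and 292 CPM at day 3. CYP708A3 alone gave 271 of the 429 CPM and 27.5 of the 286 CPM. At day 3 it gave 165 of the 457 CPM and 22.4 of the 292 CPM. The xylem sum is therefore not separate from the xylem parenchyma list. Procambial genes were mixed. MP, the auxin response factor MONOPTEROS, was called lower with 108 and 364 CPM at day 4 and 193 and 431 CPM at day 3, and the 12 procambium genes summed to 0.64-fold (0.58 to 0.70) at day 4 and 0.86-fold (0.78 to 0.93) at day 3. The study's own procambium markers summed to 0.90-fold (0.85 to 0.96) at day 4 and 1.38-fold (1.31 to 1.46) at day 3. Of the 16 measured, 3 were called higher and 1 lower, beside backgrounds of 4.83% and 3.36%.

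**Figure D4:**
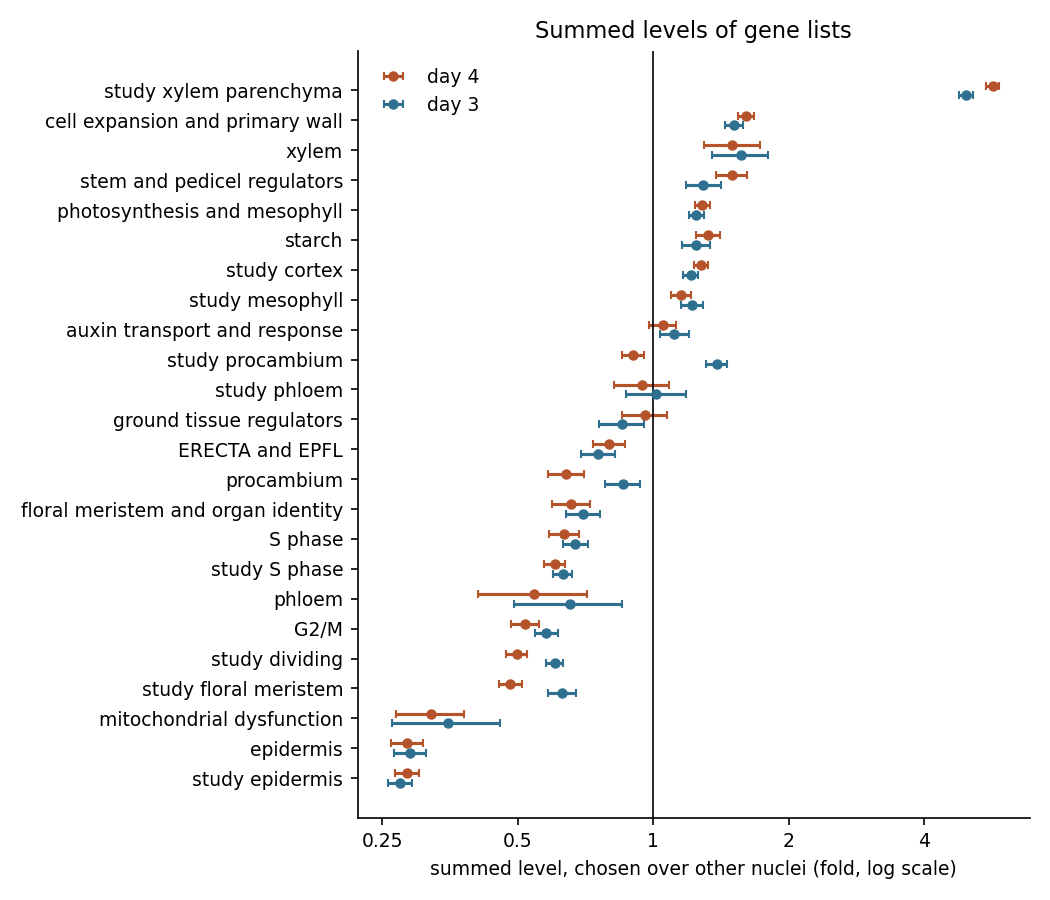
Summed level of each gene list in chosen over other nuclei (x axis, fold on a log scale) at day 4 and day 3, with exact 95% intervals for counting error. Lists named with "study" hold the study's own cluster markers without the selecting genes. The xylem parenchyma list stands apart at 5.67-fold at day 4 and 4.95-fold at day 3, the cortex list is at 1.28-fold and 1.21-fold, and the epidermal lists are lowest.

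The selecting genes did not all occur in the same nuclei. Over all nuclei, at an equal depth of 1000 UMIs, the number of nuclei with UMIs of a pair was set beside the number from the product of their shares. AT5G59305 and AT1G27020 met in 17 nuclei at day 4 and 22 at day 3, 12.9 times (7.53 to 20.7) and 12.6 times (7.90 to 19.1) the product. AT1G52700 and AT5G59305 met in 37 nuclei at day 4 and 38 at day 3, 7.99 times (5.62 to 11.0) and 9.38 times (6.64 to 12.9) the product. AT5G53486 and SBT3.13 met in 26 nuclei at day 4 and 17 at day 3, 13.8 times and 12.8 times the product, with lower bounds of 9.02 and 7.44. AT1G52700 also met both genes of this last pair. It met AT5G53486 in 20 nuclei at day 4 and 9 at day 3. That was 9.05 times (5.53 to 14.0) and 5.24 times (2.40 to 9.95) the product. It met SBT3.13 in 33 and 21 nuclei, 6.71 times (4.62 to 9.42) and 5.23 times (3.24 to 7.99) the product. AT5G53486 and AT1G27020 met in 2 nuclei at day 4 and 1 at day 3, 3.19 times (0.39 to 11.5) and 1.35 times (0.034 to 7.54) the product, too few for a difference from it to be detectable.

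JKD was found with EPFL6 more often than the product of their shares gives. JKD and EPFL6 met in 61 nuclei at day 4 and 30 at day 3, 2.61 times (1.99 to 3.35) and 1.61 times (1.08 to 2.29) the product. JKD and AT1G52700 met in 4 nuclei at day 4 and 3 at day 3, 0.36 times (0.098 to 0.92) and 0.32 times (0.066 to 0.94) the product. Without thinning that pair met in 28 nuclei in each library, 0.82 times (0.54 to 1.18) and 0.87 times (0.58 to 1.26) the product, so the shortfall was within counting error there. Without thinning JKD and EPFL6 met 2.12 times (1.80 to 2.48) and 2.02 times (1.71 to 2.38) as often as the product. EPFL6 lay on both sides, since it also met AT1G52700 in 33 nuclei at day 4 and 28 at day 3, 2.72 times (1.87 to 3.81) and 2.69 times (1.79 to 3.89) the product. Since a nucleus needed 2 genes to be chosen, such pairs decided which nuclei entered.

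The chosen nuclei were therefore divided by the genes they held, as a description. These divisions use the selecting genes themselves. Nuclei with none of the other 5 genes, which by the rule hold both JKD and EPFL6, numbered 38 at day 4 and 31 at day 3. Nuclei with JKD or EPFL6 beside at least 1 of the other 5 numbered 91 and 87, and nuclei with the other 5 genes only 80 and 77. The median UMIs of the first kind, 1673.5 at day 4 and 1602 at day 3, were below those of the other chosen nuclei. In the nuclei with JKD and EPFL6 only, the cortex list at day 4 stood at 12169 CPM, with an interval from 11377 to 13001, against 4919 CPM in the other nuclei. At day 3 it stood at 13430 CPM, with an interval from 12492 to 14421, against 5245 CPM. In nuclei with the other 5 genes only it stood at 3420 CPM at day 4 and 4385 CPM at day 3, below the other nuclei in both libraries. The xylem parenchyma list stood at 2844 CPM at day 4 and 3344 CPM at day 3 in nuclei with JKD and EPFL6 only. This was above the 1533 and 1581 CPM of the other nuclei. In nuclei with the other 5 only it was higher still, with 10270 and 9391 CPM. Nuclei with JKD or EPFL6 beside at least 1 of the other 5 were above the other nuclei on both lists. They had 6771 and 6105 CPM of the cortex list, and 9234 and 7705 CPM of the xylem parenchyma list.

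A division by JKD alone overlaps with this one by construction, since all nuclei with none of the other 5 genes hold JKD and all nuclei with the other 5 only lack it. The 65 chosen nuclei with JKD at day 4 and 51 at day 3 had 10823 and 9190 CPM of the cortex list, and 23.1% and 19.6% of them were in the cortex set. The 144 chosen nuclei without JKD in each library had 4351 CPM of the cortex list at day 4 and 5204 CPM at day 3, and 0% and 1.39% of them were in the cortex set, against 72.9% and 62.5% in the xylem parenchyma set. The cortex set as a whole, chosen nuclei included, contained JKD at 301 CPM at day 4 and 251 CPM at day 3, and 2 and 6 UMIs of AT1G52700.

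The leading genes separated further between the nuclei with AT1G52700, AT5G59305 or AT1G27020 but neither AT5G53486 nor SBT3.13 (88 at day 4, 93 at day 3), those with AT5G53486 or SBT3.13 but none of these 3 (17 at day 4, 15 at day 3), and those with genes of both groups (66 at day 4, 56 at day 3). In the first kind FUM2 had 285 CPM at day 4, where its interval ran from 218 to 366, and 188 CPM at day 3, from 134 to 256. In nuclei with both groups it had 98.1 CPM at day 4, from 56.1 to 159, and 22.3 CPM at day 3, from 4.60 to 65.2. In nuclei with AT5G53486 or SBT3.13 alone FUM2 and scpl18 had 0 UMIs in both libraries. With at most 2 UMIs of either gene in nuclei with JKD and EPFL6 only, FUM2 and scpl18 were thus found mainly where AT1G52700, AT5G59305 or AT1G27020 were found.

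SWEET10 had 81 UMIs at day 4 (497 CPM) and 68 at day 3 (506 CPM) in nuclei with both groups, against 2 and 3 UMIs (9.33 and 14.1 CPM) in nuclei with AT1G52700, AT5G59305 or AT1G27020 alone. ABCB15 had 380 and 491 CPM in nuclei with both groups, against 0 UMIs at day 4 and 9.39 CPM at day 3 where those 3 genes stood alone. DES1 had 576 and 372 CPM, against 14.0 and 14.1 CPM. AT2G43120 had 717 and 387 CPM, against 4.67 and 14.1 CPM.

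These 4 genes were thus at 0 to 3 UMIs each in nuclei with AT1G52700, AT5G59305 or AT1G27020 alone, in both libraries, although these nuclei held 214333 UMIs at day 4 and 213104 at day 3, more than the 163101 and 134515 UMIs of nuclei with both groups. MES17 and ZPR1, in contrast, did occur in nuclei with AT1G52700, AT5G59305 or AT1G27020 alone. They had 541 CPM and 229 CPM there at day 4, and 605 CPM and 277 CPM at day 3. In nuclei with JKD and EPFL6 only, SWEET10, ABCB15, DES1 and AT2G43120 had 0 UMIs in both libraries, and MES17 had 0 UMIs at day 4 and 8 at day 3. The study's procambium list had 4414 CPM at day 4 and 5241 CPM at day 3 in nuclei with both groups. In nuclei with AT5G53486 or SBT3.13 alone it had 3453 and 4073 CPM. It had 1344 and 2046 CPM where AT1G52700, AT5G59305 or AT1G27020 stood alone, and 2775 and 2252 CPM in the other nuclei.

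**Figure D5:**
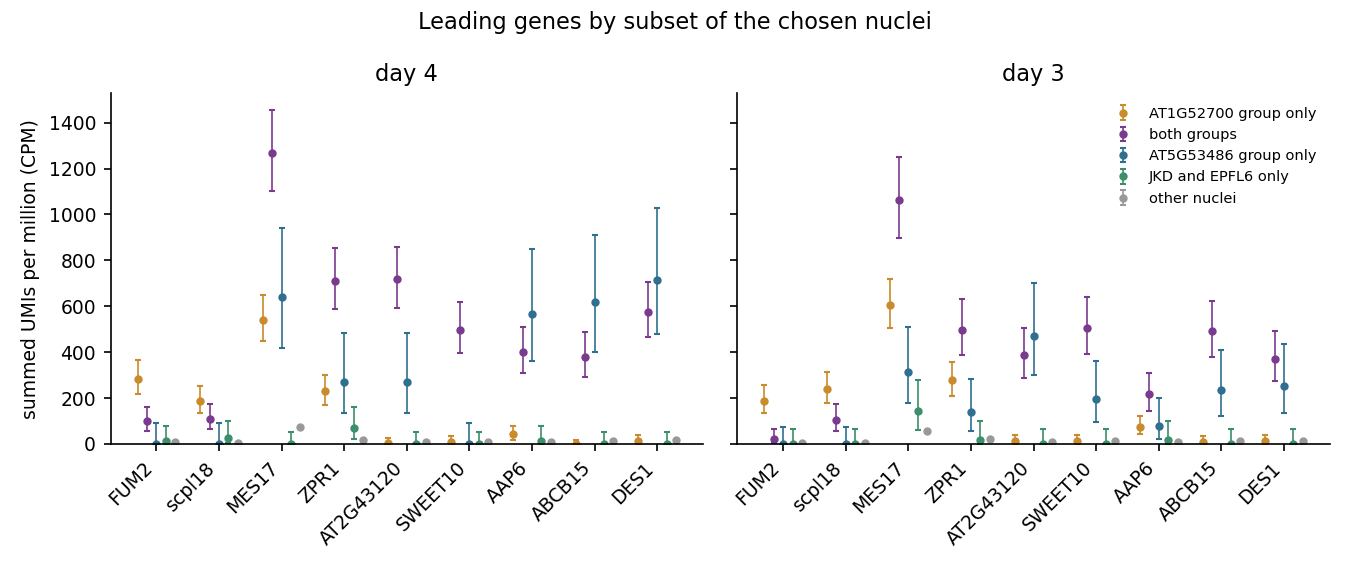
Summed level (y axis, CPM, with exact Poisson 95% intervals) of 9 leading genes in subsets of the chosen nuclei and in the other nuclei, day 4 at the left and day 3 at the right. The AT1G52700 group is AT1G52700, AT5G59305 and AT1G27020, and the AT5G53486 group is AT5G53486 and SBT3.13. FUM2 is highest in nuclei with the AT1G52700 group only (285 CPM at day 4, 188 CPM at day 3), while SWEET10, ABCB15, DES1 and AT2G43120 are near 0 there.

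The libraries were also compared with each other inside the chosen nuclei. With 1 library per day the values compare these libraries and not the stages. Of 5325 genes with at least 30 UMIs in the chosen nuclei of either library, 176 (3.31%) were at least 2-fold higher at day 4 and 120 (2.25%) at least 2-fold lower. Their median ratio, day 4 over day 3, was 0.08 in the chosen and 0.10 in the other nuclei on the log2 scale. In the other nuclei, whose counts are deeper, 19 and 14 of these genes passed 2-fold. Of the genes called, 11 of the 176 and 4 of the 120 were also 2-fold apart in the same direction in the other nuclei.

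The largest rises rested on low counts at day 3. SHN2, an AP2-type factor of the SHINE clade that promotes cutin formation, had 47 UMIs at day 4 (95.9 CPM) and 12 at day 3 (26.4 CPM), a 3.64-fold difference (1.90 to 7.53), with 16 of the 47 UMIs in 1 nucleus. Its log2 ratio of chosen over other nuclei was 4.57 at day 4 and 3.16 at day 3, but its 12 UMIs at day 3 were under the minimum for a call. CLT3, a thiol transporter of plastids, had 46 UMIs at day 4 (93.9 CPM) and 10 at day 3 (22.0 CPM), a 4.27-fold difference (2.13 to 9.50). EXPA1, a wall-loosening expansin, had 32 and 7 UMIs, a 4.25-fold difference (1.84 to 11.4), and ERF71, a hypoxia-response factor, 50 and 11 UMIs, a 4.22-fold difference (2.17 to 8.99). In the other nuclei, the log2 ratios of day 4 over day 3 were 0.63 for EXPA1 and 0.81 for ERF71. ERF71 was at the same time lower in chosen nuclei, with 102 and 208 CPM at day 4 and 24.2 and 118 CPM at day 3.

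Among the largest falls was ACL5, the thermospermine synthase that delays vessel differentiation. It had 12 UMIs at day 4 (24.5 CPM) and 48 at day 3 (105 CPM), 0.23-fold (0.11 to 0.44), while its level in the other nuclei was 58.4 and 66.4 CPM. AAP7, an amino acid permease family member, had 6 UMIs at day 4 and 45 at day 3, of which 16 were in 1 nucleus. XTH16, a xyloglucan-modifying enzyme, had 15 and 52 UMIs, 0.27-fold (0.14 to 0.48). AT4G27280, a calcium-binding protein gene, had 3 UMIs at day 4 and 31 at day 3. Without the nucleus with the most UMIs in each library, the log2 ratio of day 4 over day 3 was -4.26 in place of -3.28 for AT4G27280 and 2.63 in place of 2.03 for ERF71. In these 2 genes the smaller count lost the larger part, so the wider ratios are no sign of stability. For SHN2 the ratio fell to 1.63. Of the 7 selecting genes, SBT3.13 was 1.58 times (1.36 to 1.84) its day 3 level at day 4 and AT1G27020 0.55 times (0.43 to 0.70), and none of the 7 was 2-fold apart.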

How the data were processed

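Raw UMI counts per gene and barcode were deposited by the authors for both libraries, who ran Cell Ranger (version 3.1.0) on the Araport11 annotation. Which genome sequence was used is not given in the sources used here, so no coordinates or sequences are printed. Gene names came from a RefSeq table of assembly TAIR10.1, which matched 36632 identifiers. The day 4 file held 7716 called barcodes and the day 3 file all barcodes. Nuclear genes alone entered totals. No doublet or free-RNA correction was made.

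The members and the lists were chosen with earlier results of these data known. Counts were summed over nuclei and scaled to CPM. A pseudocount of 1 CPM, a minimum of 30 UMIs and a 2-fold call were used. Named genes were the 7 selecting genes, list members, the 25 highest and 10 lowest ratios and the 8 largest rises and falls between days. Lists taken from the study hold at most 20 leading markers of a cluster. Intervals were exact Poisson, exact binomial (Clopper-Pearson) or exact conditional. Nuclei were thinned to 1000 UMIs where depth mattered. The arithmetic of the selection and the call was checked on simulated counts with planted differences. Those counts lack the spread between nuclei seen here, so the check says nothing about the results. As an alternative scaling, TMM factors were taken from edgeR 4.0.16. Python 3.11.15, numpy 2.4.6 and scipy 1.17.1 were used.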

Additional observations from a re-analysis of the deposited data

Results flagged for a closer look

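AT2G22620 was 2-fold apart in opposite directions in the 2 libraries. Its log2 ratio of chosen over other nuclei was -1.89 at day 4, with 8 UMIs in 8 chosen nuclei, and 1.00 at day 3, with 60 UMIs in 10 chosen nuclei. In day 3, 27 of the 60 UMIs lay in 1 nucleus, and without it the day 3 ratio was 0.17. The difference between the libraries was not tested.

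Barcodes with at least 500 and under 1000 detected genes were left out of the selection. Of these, 2.8% at day 4 (87 of 3108) and 2.6% at day 3 (141 of 5433) reached the score limit with at least 2 of the 7 genes. In barcodes of so few UMIs, a single UMI of each of 2 genes may reach the limit. How far depth or free RNA gave these shares was not tested.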

How the results depend on the processing

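The xylem parenchyma list stayed above the cortex list in median log2 ratio in every alternative except, at day 4, the score from JKD and EPFL6 alone. Over all results and alternatives, 162 values stayed near the reported one, 51 moved away and 2 medians changed sign. Near meant inside the interval of the reported value for medians and shares, and within a set fold for counts. With JKD and EPFL6 alone the median log2 ratios were 1.20 at day 4 and 1.15 at day 3 for the cortex list and 1.16 and 1.16 for the xylem parenchyma list, with 22.7% and 21.3% of chosen nuclei in the cortex set, 12.8% and 14.5% in the xylem parenchyma set, and 143 genes higher and 97 lower. The cortex median at day 4 turned to -0.10 with the 5 genes without JKD and EPFL6, and to -0.065 without the chosen nuclei holding JKD, an alternative chosen after seeing the data.

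The share of chosen nuclei in the cortex set became 0.617% at day 4 and 1.80% at day 3 with those 5 genes, 2.75% and 1.17% without JKD in the score, 2.52% and 1.23% without EPFL6, and 0% and 1.39% without the nuclei holding JKD. It was 2.68% at day 4 for the top 3%, and at day 3 it was 0.980% with at least 3 genes and 11.6% with a minimum of 1500 genes. The share in the xylem parenchyma set became 71.6% and 58.7% with the 5 genes, 69.6% and 65.8% for the top 3%, 44.9% and 41.1% for the top 10%, 70.6% and 63.7% with at least 3 genes, and 72.9% and 62.5% without the nuclei holding JKD. At day 4 it was 45.6% without AT1G52700, 65.4% without JKD, 66.7% without EPFL6 and 45.6% after thinning, and at day 3 43.2% with a minimum of 1500 genes.

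Higher and lower genes numbered 116 and 70 with a minimum of 1500 genes, 86 and 38 after thinning, 431 and 355 with a minimum of 10 UMIs, and 54 and 28 with 100 UMIs. Lower genes numbered 91 for the top 3% and 99 with at least 3 genes. Between days, 59 genes were higher and 40 lower after thinning, 8 and 6 with 100 UMIs, and 102 were higher with a pseudocount of 10 CPM. The causes of these shifts were not tested. No paired analysis was possible because each day has 1 library, and no replicate could be left out. Low genes rest on few nuclei, and intervals do not cover differences between plants.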
